A study of Mus musculus with 2 samples.

Results

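The genes described here are the ligands, receptors, inhibitors and effectors of the Wnt pathway in newborn mouse skin with and without keratin 5. They were chosen by a rule on symbols that uses no measured value, though earlier results of these data were known. Probe sets with 1 gene symbol were taken where the symbol belongs to the Wnt, Fzd, Sfrp, Dkk, Dvl, Axin or Tle families. The rule also lists 13 single genes such as Lef1, Lrp6 or Apc. Of these, Gsk3b, Wif1 and Tcf7 were not analysed here. This gave 61 probe sets for 47 of the 8251 genes on the array, with 14 ligands, 10 receptors, 7 secreted inhibitors, 9 cytoplasmic effectors and 7 nuclear effectors. One group was K5-/- skin, from mice in which the gene for keratin 5 is knocked out, and the other was skin of wild type mice. The sources used here give no strain, sex or construction of the knockout allele. Each group is 1 pool of RNA from 6 neonatal animals on 1 array, so there are no replicates, no test could be run, and every value compares these 2 arrays. The labels call the source epidermis in one field, while the protocol takes whole skin, so dermis, hair follicles, muscle and vessels contribute RNA.

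Wnt ligands are secreted proteins that bind Frizzled receptors (Fzd) together with the co-receptors Lrp5 and Lrp6. Without a ligand, a complex of Axin, Apc, casein kinase 1 and glycogen synthase kinase 3 marks beta-catenin for destruction; with a ligand, Dishevelled (Dvl) helps to block that complex, and beta-catenin binds the Tcf and Lef factors on target genes in place of the Tle co-repressors. In skin the pathway is best known for the formation and cycling of hair follicles and for signals between epidermis and dermis.

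The values are MAS5 signals, in which the probes of a probe set are combined into 1 linear intensity, and ratios are log2 of knockout over wild type. Signals under a floor of 246.7 units, the 40th percentile of all values, were raised to it. A gene counts as measured if the floor was passed by either of its signals, and if only 1 passed, the ratio is a lower bound. A gene with several probe sets is represented by the brightest. Signals of different genes come from different probes and were not set against each other. They were summed only over lists of cell type markers, and such a sum follows mostly the brightest probe sets. The available error is the standard deviation (SD) between the log2 ratios of probe sets of the same gene, 0.30 over the 838 genes that have 2 or more probe sets past the floor in both groups; it was 0.32 for genes of mean signal under 1000 and 0.28 for brighter ones, and it holds no variation between animals.

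Of the 47 genes, 37 were measured, 33 of them above the floor on both arrays and 4 in the knockout alone. No member reached 2-fold in either direction at this floor. Wnt1, which has only a lower bound, was at 1.01 under a 25th percentile floor, and Wnt6 was at -1.05 after quantile normalization and -1.07 after the lowess correction, so 1 member passed 2-fold in each of these 3 of 10 alternatives. Of all 5976 measured genes, 1.54% were 2-fold or more higher and 0.703% lower. At the smaller size of 1.5-fold, the ligands Wnt6 and Wnt4 were lower and the transcription factor gene Tcf7l1 was higher. These are 2.70% of the measured members higher, beside 7.63% of all measured genes, and 5.41% lower, beside 5.27%. The share on the lower side was thus at the background. The share on the higher side rests on 1 gene and on the floor: at the 25th percentile, 5 of 43 members (11.6%) were at least 1.5-fold higher, beside 11.2% of all genes. At that floor 3 members (6.98%) were at least 1.5-fold lower, beside 6.37% of all genes. The size of the log2 ratio was under the SD of 0.30 in 18 members and at or above it in 19, that is 51.4%, against 41.7% of all measured genes. Of the 37, 26 were higher and 11 lower in the knockout, and the split was 24 to 13 after quantile normalization, centring on the median of all genes or averaging probe sets, because ratios near 0 changed sign (Fzd2, Fzd9, Csnk1a1 and Lef1). The 26 make 70.3%, beside 53.9% of all measured genes, and the median log2 ratio was 0.13 beside 0.04. Of the 21 members of mean signal under 1000, 15 were higher (71.4%), where dim genes as a whole leaned the same way (59.7%).

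**Figure D1:**
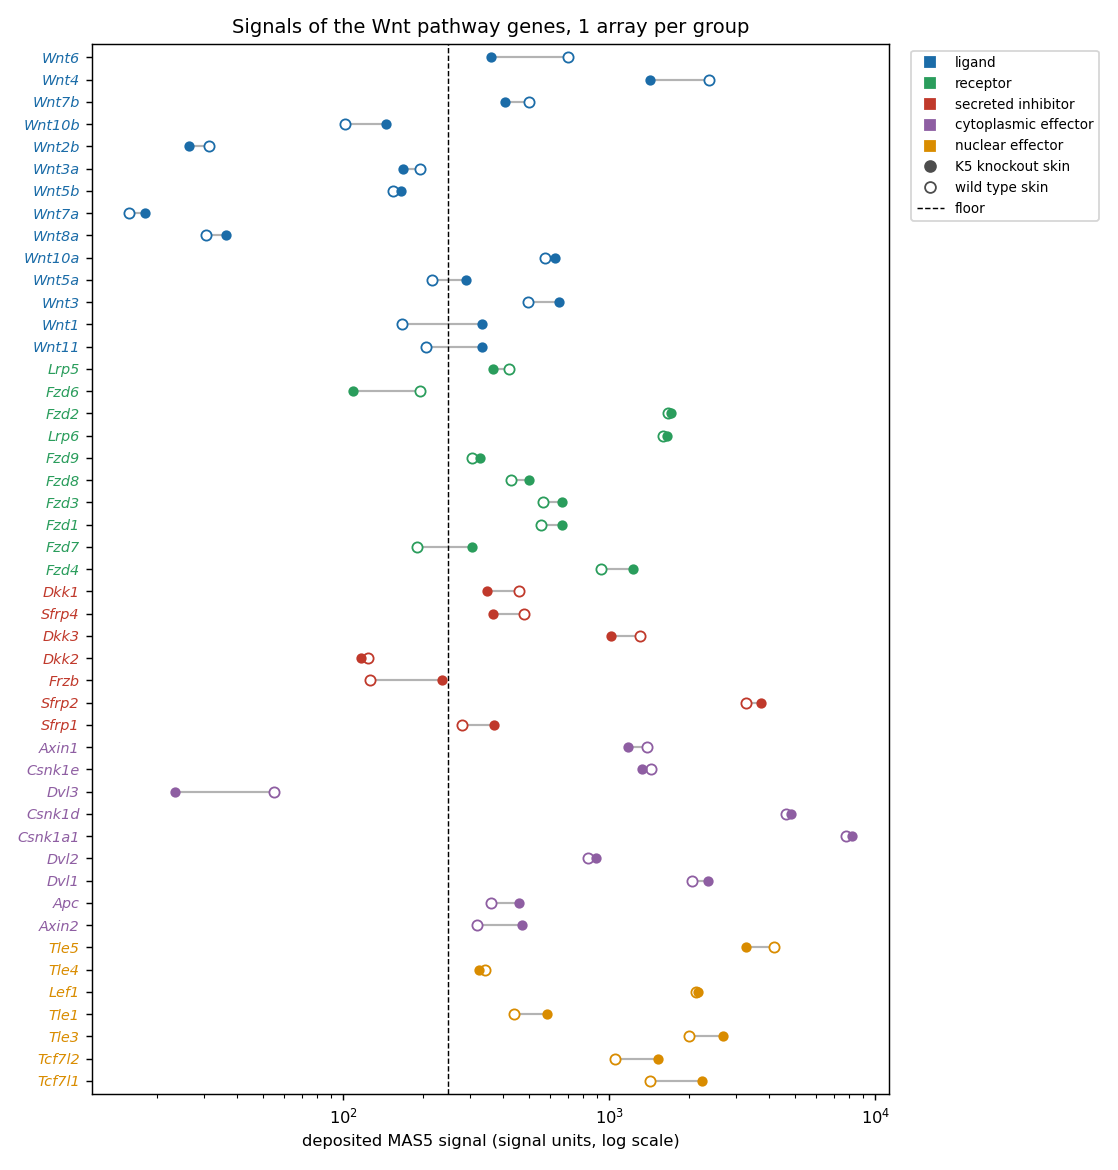
Deposited MAS5 signal of each of the 47 Wnt pathway genes (log axis, signal units) in K5 knockout skin (filled) and wild type skin (open), 1 array per group, coloured by role; the dashed line is the floor of 246.7. The 10 genes left of the line on both arrays have no ratio, and the widest gaps among measured genes are those of Wnt1, Wnt6, Wnt4, Wnt11, Fzd7 and Tcf7l1; levels of different genes are not comparable.

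The bases just before the start site are shown for the 3 members that differed by at least 1.5-fold, and for Dkk1 as the member in which this window held the most matches to the Tcf/Lef motif. Sequences are RefSeq promoters of build GRCm38.p6, the 250 bases before the start, 5′ to 3′ on the strand of the gene. Matches to CTTTGAA or CTTTGAT or CTTTGTA or CTTTGTT on either strand are in capitals.
Wnt6, chr1:74771642-74771891, plus strand: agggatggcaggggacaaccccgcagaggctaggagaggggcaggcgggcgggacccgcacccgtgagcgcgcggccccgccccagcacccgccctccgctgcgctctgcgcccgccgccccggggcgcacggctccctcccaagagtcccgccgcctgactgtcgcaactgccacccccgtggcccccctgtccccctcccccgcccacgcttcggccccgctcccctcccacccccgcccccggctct
Wnt4, chr4:137277385-137277634, plus strand: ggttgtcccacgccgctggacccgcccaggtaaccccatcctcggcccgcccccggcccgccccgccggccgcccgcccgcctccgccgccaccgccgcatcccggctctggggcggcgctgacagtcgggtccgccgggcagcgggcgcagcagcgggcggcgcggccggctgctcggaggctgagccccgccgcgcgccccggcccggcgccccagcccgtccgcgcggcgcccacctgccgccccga
Tcf7l1, chr6:72789046-72789295, minus strand: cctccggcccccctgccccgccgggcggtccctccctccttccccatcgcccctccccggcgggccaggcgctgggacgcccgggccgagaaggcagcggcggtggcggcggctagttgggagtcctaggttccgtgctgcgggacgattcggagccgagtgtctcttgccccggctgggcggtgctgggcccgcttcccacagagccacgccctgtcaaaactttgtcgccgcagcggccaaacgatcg
Dkk1, chr19:30549497-30549746, minus strand: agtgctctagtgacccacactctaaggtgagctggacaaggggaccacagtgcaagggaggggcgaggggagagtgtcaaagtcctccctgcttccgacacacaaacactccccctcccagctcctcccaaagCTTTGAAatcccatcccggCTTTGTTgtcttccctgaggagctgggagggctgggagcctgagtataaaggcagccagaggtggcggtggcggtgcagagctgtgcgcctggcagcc

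The windows of Wnt6, Wnt4 and Tcf7l1 held no match, and were rich in G and C (79.6%, 85.2% and 73.6%), whereas that of Dkk1 (60.8% G and C) held 2, CTTTGAA ending 110 bases and CTTTGTT ending 91 bases before the start. Of the 47 genes, 29 had a promoter in the table, with 40 start sites in all. A match lay before 6 of the 40 (15%), in Dkk1, Fzd7, Lef1, Tcf7l2, Wnt11 and Wnt5b, and before 14.8% of all 32851 promoters. A match is a run of letters, not a known binding site, and nothing is drawn from windows without one.

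Among the ligands, 8 of 14 were measured and they were divided, 3 lower and 5 higher. Wnt6, a ligand of epithelia that is made in the epidermis, read 359 in knockout skin (given first throughout) against 698 in wild type skin, 1.94-fold lower (log2 ratio -0.96). Among the 33 members above the floor on both arrays it had the largest difference. Wnt4, another epidermal ligand that can act with or without beta-catenin, read 1421 and 2373, 1.67-fold lower (-0.74). Wnt4 was at least 1.5-fold lower under each of the 10 processing alternatives (-0.77 to -0.65), and Wnt6 under 9 of 10: a floor at the 60th percentile lifts its knockout signal to 660 and leaves a bound of -0.08. Each of these genes has 1 probe set, so a lower floor or the choice of probe sets could not change its ratio. Wnt4 also lies above the 60th percentile floor on both arrays, so that setting could not change it either. Wnt7b, an epidermal ligand of the same lower side, read 405 and 498 (-0.30). In size this equals the spread between probe sets over all genes (0.30) and is within that of genes under 1000 (0.32).

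Of the 5 higher ligands, 2 were above the floor on both arrays. Wnt3, which is expressed in the hair follicle, read 646 and 494 (0.39). Wnt10a, an early ligand of hair and tooth placodes, read 627 and 574 (0.13), within the spread. Wnt10a and Wnt6 are adjacent protein-coding genes in the GRCm38.p6 annotation, and their ratios had opposite signs. The remaining 3 were above the floor in the knockout alone. Wnt1, best known from the midbrain and neural crest, read 333 and 166 and was at least 1.35-fold higher. Wnt11, a ligand of beta-catenin-independent signalling, read 333.5 and 205.5 and was also at least 1.35-fold higher. Wnt5a, the main ligand of that branch in the dermis, read 289 and 216, at least 1.17-fold higher. The bounds depend on the floor: at the 25th percentile (86.9) the log2 ratios of Wnt1, Wnt11 and Wnt5a were 1.01, 0.70 and 0.42. The other 6 ligands, Wnt10b, Wnt2b, Wnt3a, Wnt5b, Wnt7a and Wnt8a, were at the floor on both arrays. They include the placode ligand Wnt10b, whose 3 probe sets read 144.5, 102.2 and 52.1 for knockout and 101.5, 91.3 and 48.7 for wild type skin. The 10 members at the floor, of all roles, had signals from 18.0 to 235.4 in the knockout and from 15.6 to 194.1 in wild type skin. The median of the 8 measured ligands was 0.18, but -0.30 over the 5 above the floor on both arrays, so the median of this group has no settled sign.

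**Figure D2:**
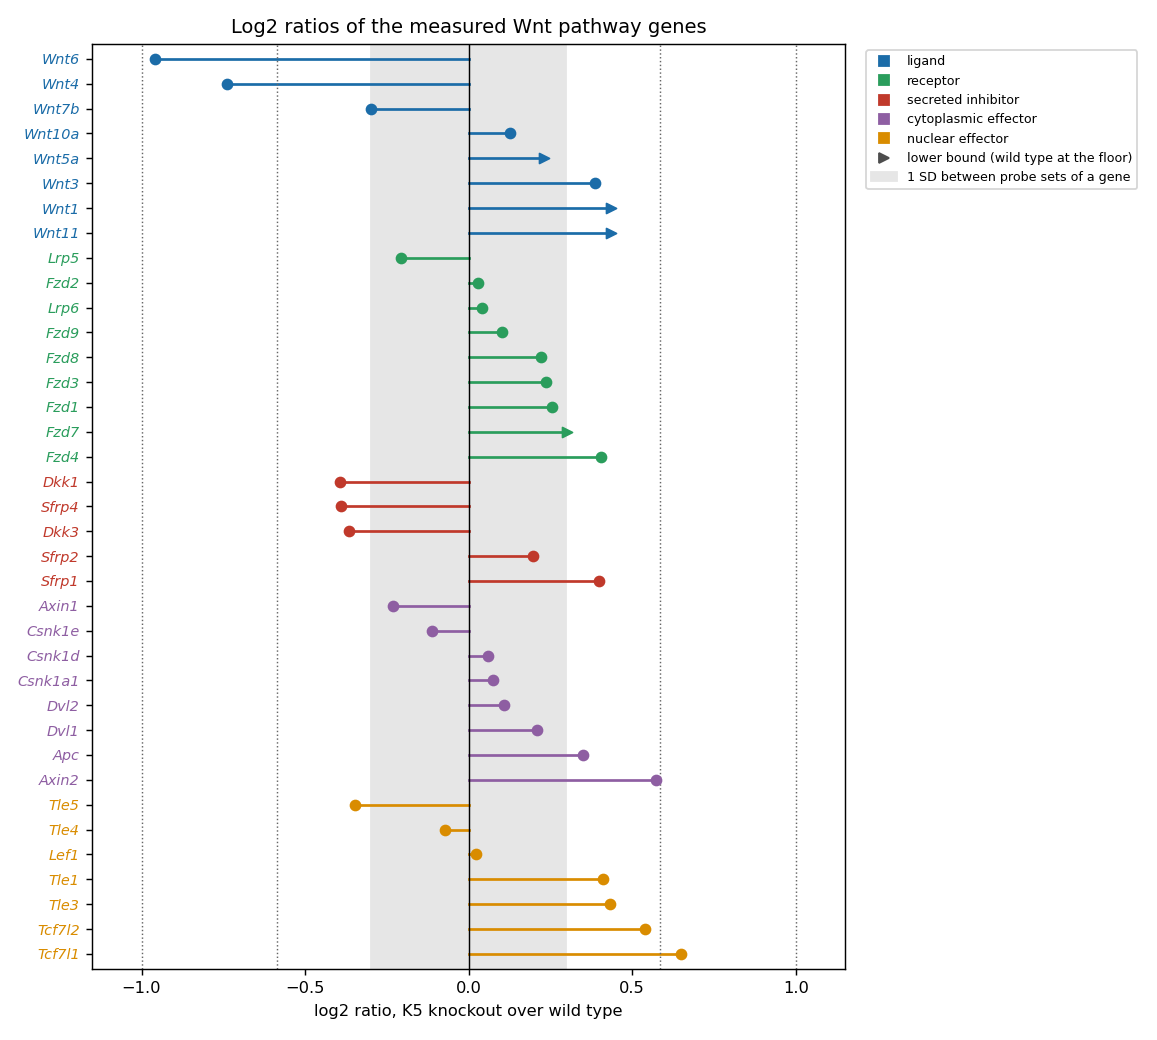
Log2 ratio of K5 knockout over wild type for the 37 measured Wnt pathway genes, by role; circles are ratios, triangles are lower bounds (wild type signal at the floor), the grey band is 1 SD between probe sets of a gene (0.30), and dotted lines mark 1.5-fold and 2-fold. Wnt6 at -0.96, Wnt4 at -0.74 and Tcf7l1 at 0.65 lie beyond 1.5-fold and no gene reaches 2-fold at this floor.

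Markers of several cell types differed between the same arrays. Of the 7 basal keratinocyte markers, 4 were measured and all 4 were lower in the knockout: Itgb4, a hemidesmosome integrin, at -0.56, Trp63, the transcription factor of basal cells, at -0.54, Itga6 at -0.38 and Col17a1 at -0.29. The summed signal of the list was 7351 against 9943. Its defining keratins Krt5, Krt14 and Krt15 were at the floor on both arrays, Krt5 with 81.2 and 46.6, so the targeted gene could not check the labels. Since these keratins were at the floor in wild type skin too, a signal at the floor cannot be read as absence of the RNA. Of 13 measured hair follicle markers 12 were higher, with a summed signal of 30096 against 21378. Of 10 dermal fibroblast markers 7 were higher (209347 against 181494), and of 7 suprabasal keratinocyte markers 5 were (190024 against 162489). Of 6 endothelial markers 5 were higher (4868 against 4087). All 5 measured macrophage markers were higher, with a median of 0.58 (7217 against 4908 over the 7 on the array), as were all 9 skeletal muscle markers (77799 against 66528). Of 5 mast cell markers, 2 were higher and 3 lower, with a median of -0.00484. Of 3 measured melanocyte markers 1 was higher (6006 against 6482), and the 2 measured Schwann cell markers were lower (5719 against 6419). Of 3 measured smooth muscle markers 2 were higher, while the summed signal of that list was lower (3775 against 4058). Of 3 adipocyte markers 2 were higher (12516 against 10989), as was the 1 measured T cell marker. Beside these counts, 53.9% of all measured genes were higher. The part of these differences in the ratios of Wnt genes was not tested, and in pooled tissue fewer cells of a type and less RNA per cell cannot be told apart.

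Of 9 measured receptors, 8 were higher and 1 lower, with no ratio past 1.5-fold at this floor, with a median of 0.22; among them, Fzd9 turned to -0.05 after quantile normalization and Fzd2 to -0.00722 after centring. Fzd4, a receptor best known from blood vessels, had the largest ratio at the main floor, with 1233 and 932 (0.41). Its brightest probe set decides this value, since the other 2 were under the floor on both arrays. Fzd7, a receptor of both branches, was above the floor in the knockout alone (304 and 189, at least 1.23-fold higher), and at 0.68 with the lower floor. Fzd1 (0.26), Fzd3 (0.24), Fzd8 (0.22), Fzd9 (0.10) and Fzd2 (0.03) were within the spread between probe sets. Fzd3, a receptor of planar polarity signalling, read 663 and 563.5. Fzd6, the Frizzled most closely tied to hair patterning, was at the floor on both arrays (109 and 194). Under the 25th percentile floor Fzd6 entered at -0.84, 1.79-fold lower, the largest receptor ratio in size at that floor. The co-receptors differed little: Lrp6 read 1645 and 1598.5 (0.04), and Lrp5 read 364.5 and 421 (-0.21). The receptor median was 0.03 under the 60th percentile floor and 0.10 after quantile normalization.

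Of the secreted inhibitors, 5 of 7 were measured, with a median of -0.37. Dkk1, which blocks Lrp5 and Lrp6, read 347 and 456, 1.31-fold lower (-0.39). Sfrp4, which binds Wnt ligands outside the cell, read 364 and 477, also 1.31-fold lower (-0.39). Dkk3, a divergent family member whose part in Wnt signalling is less clear, read 1014 and 1308 (-0.37). These 3 ratios lay just beyond the spread of 0.30. In contrast, Sfrp1 read 369 and 280 (0.40), and Sfrp2, a Wnt-binding protein of dermal fibroblasts, read 3735 and 3263 (0.20). The Sfrp family therefore had members on both sides, and Dkk1 and Dkk3 were both lower. Frzb, another Wnt-binding inhibitor, fell just short of the floor in the knockout (235 and 127) and Dkk2 read 117 and 123.5. Under the 25th percentile floor these 2 entered at 0.90 and -0.08, and the median of the inhibitors became -0.08.

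Of 8 measured cytoplasmic effectors, 6 were higher and 2 lower, with a median of 0.09, and all but Axin2 and Apc were within the spread. Axin2, a scaffold of the destruction complex that is itself a widely used readout of beta-catenin signalling, read 471 and 317, 1.49-fold higher (0.57). It was higher under each of the 9 alternatives that measured it (0.35 to 0.57) and reached 1.5-fold in 0 of them. Axin2 has 1 probe set above the floor on both arrays, so a lower floor or the choice of probe sets could not change its ratio. Axin1, the related scaffold that is expressed throughout, read 1175 and 1381 (-0.23). Apc, the tumour suppressor of the complex, read 457.5 and 359 (0.35). Among the Dishevelled genes, Dvl1 read 2358 and 2040 (0.21), Dvl2 894 and 830.5 (0.11), and Dvl3 was at the floor on both arrays (23.3 and 55.1).

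The casein kinase 1 genes show what the probe sets allow. Csnk1a1, the priming kinase of beta-catenin, had 2 bright probe sets that read 8212 and 7608 for knockout and 7798 and 8322 for wild type skin, so their log2 ratios were 0.08 and -0.13. Csnk1d had 4. Its 2 bright probe sets gave 0.06 (4830 and 4637.5) and 0.48 (4952.5 and 3546), and its dim ones gave bounds of 0.54 and -0.66. The probe sets of this 1 gene thus ran from -0.66 to 0.54. Csnk1e, a kinase that acts on Dishevelled, read 1332 and 1440 (-0.11).

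**Figure D3:**
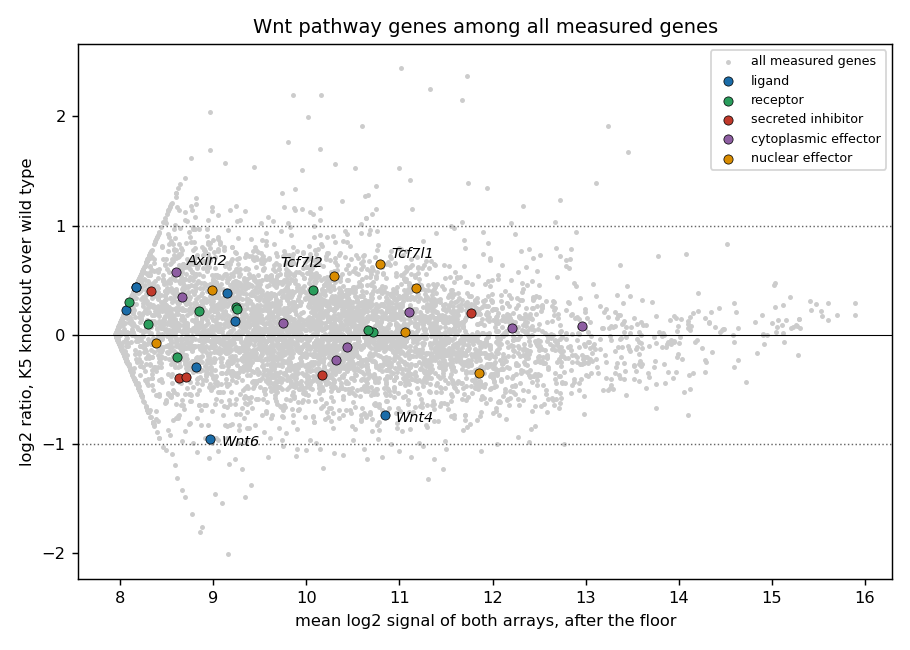
Log2 ratio of K5 knockout over wild type against the mean log2 signal of both arrays after the floor, for all 5976 measured genes (grey) and the 37 measured Wnt pathway genes (coloured by role); dotted lines mark 2-fold. The Wnt genes lie within the cloud of all genes, with Wnt6 and Wnt4 near its lower edge and a median of 0.13 beside 0.04.

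All 7 nuclear effectors were measured, 5 higher and 2 lower, and their median of 0.41 was the highest of the 5 roles. Tcf7l1, a mainly repressing Tcf factor of basal and hair follicle stem cells, read 2224.5 and 1419 on its brightest probe set, 1.57-fold higher (0.65). Its other probe set, also well above the floor, read 1673 and 1657 (0.01). The mean over both is 0.33, so the 1.5-fold difference rests on 1 of 2 probe sets. Tcf7l2, which activates targets together with beta-catenin and represses them without it, read 1520 and 1047, 1.45-fold higher (0.54). Its identifier marks a probe set that may be shared with related sequences, and the other probe set was at the floor on both arrays (173 and 156).

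Lef1, the factor of hair follicle matrix and precortex cells, hardly differed on its brighter probe set, 2148 and 2117 (0.02). The dimmer one read 402 and 512 (-0.35). The Tle genes, which encode Groucho co-repressors, were divided: Tle3 read 2683 and 1991 (0.43), Tle1 read 583.5 and 440 (0.41), and Tle4 read 325 and 342 (-0.07). Tle5 encodes a short family member that lacks the repeats of the others and can counteract them. It read 3274 and 4167 and was lower (-0.35). The median of the nuclear effectors stayed above 0 under all 10 alternatives (0.22 to 0.43).

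Pathway genes outside these families did not lean to one side. Of 68 on the array, 58 were measured, 29 higher and 29 lower, with a median of -0.02, and 1 was at least 1.5-fold higher (1.72%, beside 7.63% of all measured genes) and 3 lower (5.17%, beside 5.27%). Ryk, a receptor-like kinase that binds Wnt ligands, read 2020 and 4167, 2.06-fold lower (-1.04), on 1 of 2 probe sets, the other being at the floor. Ppp2ca, a catalytic subunit of protein phosphatase 2A, was at -0.69 (679 and 1093), and Nfatc1, a calcium-regulated transcription factor, at -0.59 (572 and 861). Dab2, an endocytic adaptor that binds Dvl3 and Axin, was at 0.63 on its brightest probe set and at -0.47 and 0.11 on the others. Beta-catenin itself, Ctnnb1, read 12340 and 15139 (-0.29), and Wls, which carries Wnt ligands to the cell surface, 4005 and 3976 (0.01).

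Genes listed as Wnt targets spread widely in both directions. The list leaves out the members described above, among them Axin2. It shares genes with the other lists, such as Apcdd1 with the pathway genes above and Bmp4 with the hair follicle signalling genes below. Of its 38 genes on the array, 26 were measured, 13 higher and 13 lower, with a median of -0.01. Of these, 5 were at least 1.5-fold higher: Ccn1, a matricellular protein gene, at 1.52, Fosl1 at least 2.31-fold, Jun at 0.92, Plaur at 0.83 and Twist1 at 0.63 (19.2% of the list, beside 7.63% of all measured genes). Another 4 were at least 1.5-fold lower: Mycn at -1.13, the activin inhibitor gene Fst at -1.02, Snai2 at -0.78 and Edn1 at -0.69 (15.4%, beside 5.27%). The list was chosen with results of these arrays known, and nothing particular to it is read from these shares. Ccn1, Jun and Fosl1 are also induced by serum and stress signals. Other targets included Myc at 0.33, Ccnd1 at -0.05, Cd44 at -0.10 and the cell division gene Birc5 at -0.38.

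Signalling genes that work beside Wnt in the hair follicle gave a median of 0.04 over 21 measured genes, 12 higher and 9 lower. The hedgehog ligand Shh was at 0.05, its receptor Ptch1 at 0.06, the effector Gli1 at -0.01 and Bmp4 at 0.00374. The transcription factor gene Gata3 was at 0.65, Bmp7 at -0.87 and the Notch ligand gene Jag2 at -0.99, the 3 of this list past 1.5-fold. They are 4.76% of its measured genes higher, beside 7.63% of all measured genes, and 9.52% lower, beside 5.27%. This list too was chosen with earlier results of these data known.

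**Figure D4:**
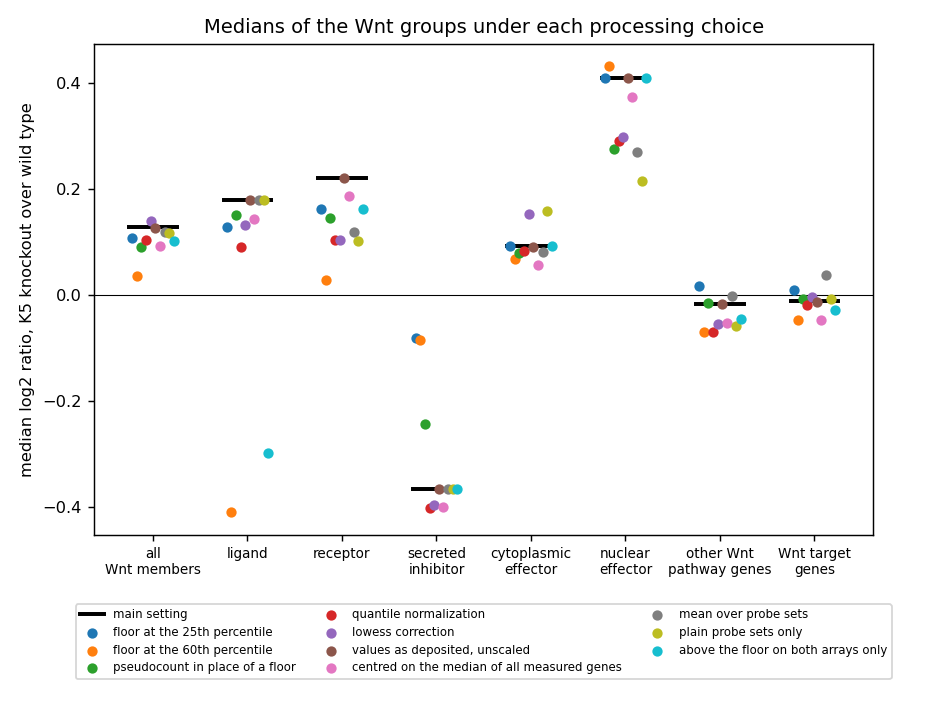
Median log2 ratio of K5 knockout over wild type (vertical axis) for all measured Wnt members, the 5 roles, other Wnt pathway genes and Wnt target genes; black bars are the main setting and points the 10 processing alternatives. The nuclear effectors stay above 0 (0.22 to 0.43) and the secreted inhibitors below 0 (-0.40 to -0.08) under all 10, while the ligands run from -0.41 to 0.18.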

How the data were processed

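Total RNA of 6 animals per group was pooled and 2 µg was labelled, per the labels' protocols; each pool was read on 1 array. The authors deposited linear intensities, 1 for each probe set, made with MAS5 (per the submitters' processing notes; version, scaling target and detection calls not given in the sources used here). Beside 66 controls, the table has 12422 probe sets: 10833 have 1 symbol in the platform annotation, 396 have several and 1193 none. Intensities were scaled to a common 2% trimmed mean (factors 1.0001 and 0.9999), floored at the 40th percentile (246.7) and log2-transformed. MAS5 fixes each array's overall level, so a global difference in RNA per cell cannot be seen.

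A single array in each group leaves no residual degrees of freedom: results are sizes, read beside all measured genes, and the number of arrays limits their precision. All measured members are named with their values; from the 2 further lists, those past 1.5-fold are named, and the others shown there were chosen after their values were seen. Members and lists were chosen with earlier results of these data known. The division at a mean signal of 1000 was also set after the data were seen. Calculations used Python 3.11.15 with pandas 2.3.3 and NumPy 2.4.6 and were tested on simulated data. Alternatives varied the floor, normalization and choice of probe sets.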

Additional observations from a re-analysis of the deposited data

How the results depend on the processing

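With 1 array per group no array could be left out, and no paired analysis was possible because each group has 1 array. Of 120 summary values recomputed under the 10 alternatives, 98 stayed within 0.1 (log2) or within 1.5 times for counts, and none of the single genes past 1.5-fold changed sign. The unscaled setting could hardly move any value, because the scaling factors were so close to 1. A floor or a pseudocount cannot reverse a sign. Wnt6 and Wnt4 have 1 probe set each, and both probe sets of Tcf7l1 had ratios above 0. Only another normalization or the centring could therefore have reversed these genes. With the floor at the 25th percentile, 1 member was at least 2-fold higher (Wnt1, 1.01), 5 were at least 1.5-fold higher, and the inhibitor median was -0.081. With the floor at the 60th percentile, 20 members were measured, 1 was at least 1.5-fold lower, and the medians were -0.41 for ligands, 0.028 for receptors and -0.085 for inhibitors. With a pseudocount, 0 members were 1.5-fold higher, and the inhibitor and nuclear effector medians were -0.24 and 0.27. Quantile normalization gave 1 member at least 2-fold lower (Wnt6), with medians of 0.10 for receptors and 0.29 for nuclear effectors; the lowess correction gave 1 such member too, with 0.10 and 0.30. The mean over probe sets gave 0 members 1.5-fold higher, with 0.12 and 0.27 for the same groups, and plain probe sets gave 0.10 and 0.22. Over genes above the floor on both arrays only, the ligand median was -0.30. The first 2 settings changed the floor, which alters both the genes measured and the signals raised to it. At the 60th percentile, genes that stayed measured moved too: Wnt6 to -0.08, Fzd1 to 0.007 and Fzd3 to 0.008. The last setting leaves out genes with a bound by construction. The cause was not tested for the other settings. Signals near the floor limit the ratios of Wnt1, Wnt5a, Wnt11 and Fzd7.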
